A study of Mus musculus with 6 samples.

Results

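The metabotropic glutamate receptor genes were followed in the striatum of young mice whose fathers had received methylphenidate or saline. The 7 members, Grm2, Grm3, Grm4, Grm5, Grm6, Grm7 and Grm8, were taken by their symbols from the 45777 genes of the deposited count table, and each was found once. Methylphenidate blocks the dopamine and noradrenaline transporters. The methylphenidate-sired group was bred from ICR males, an outbred strain, that were given methylphenidate at 15 mg/kg under the skin for 21 days from 6 weeks of age. The saline-sired group was bred from ICR males given saline at 10 mL/kg in the same way, and all dams were untreated. Striatum was taken from the offspring at 6 weeks, from 3 animals per group that the labels list as 2 females and 1 male in each. The labels give no dosing of the offspring, and the sources used here do not give how many sires and litters they came from. The p-values therefore cover the spread among these animals only.

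Metabotropic glutamate receptors are G protein-coupled receptors that open no channel themselves and tune the strength of synapses. They fall into 3 groups. Group I receptors, with mGluR5 (Grm5), sit mostly on the postsynaptic side and act through Gq, phospholipase C and calcium release. Group II receptors (Grm2 and Grm3) and group III receptors (Grm4, Grm6, Grm7 and Grm8) act through Gi/o proteins, lower cyclic AMP and mostly restrain transmitter release from axon terminals. In the striatum, mGluR5 is abundant in medium spiny neurons, the projection neurons of this nucleus, whereas much of the mGluR2 protein lies on axons that arrive from the cortex, whose mRNA is made in cell bodies outside the striatum.

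Promoter windows from RefSeq (GRCm38.p6, 250 bases before to 50 after an annotated start) were found for 5 of the 7 members, with 8 windows in all. The windows of Grm2 and Grm3 are shown because these 2 genes form group II, and that of Grm6 because no read was assigned to it. Capitals mark the GC box, GGGCGG on either strand, which was the only searched motif found in the 3 windows. They lie at chr9:106656060-106656359 on the minus strand (Grm2), chr5:9725303-9725602 on the minus strand (Grm3) and chr11:50850435-50850734 on the plus strand (Grm6).
Grm2: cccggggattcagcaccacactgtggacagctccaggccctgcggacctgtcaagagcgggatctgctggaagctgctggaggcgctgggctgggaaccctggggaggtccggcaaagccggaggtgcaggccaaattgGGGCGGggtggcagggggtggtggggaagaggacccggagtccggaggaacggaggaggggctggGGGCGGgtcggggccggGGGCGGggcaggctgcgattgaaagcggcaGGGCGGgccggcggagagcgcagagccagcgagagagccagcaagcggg
Grm3: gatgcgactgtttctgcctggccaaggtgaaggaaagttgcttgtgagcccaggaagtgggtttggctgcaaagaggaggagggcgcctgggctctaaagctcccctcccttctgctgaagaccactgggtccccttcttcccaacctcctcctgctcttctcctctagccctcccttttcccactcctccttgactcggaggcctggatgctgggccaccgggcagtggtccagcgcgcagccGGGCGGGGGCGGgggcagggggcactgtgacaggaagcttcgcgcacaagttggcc
Grm6: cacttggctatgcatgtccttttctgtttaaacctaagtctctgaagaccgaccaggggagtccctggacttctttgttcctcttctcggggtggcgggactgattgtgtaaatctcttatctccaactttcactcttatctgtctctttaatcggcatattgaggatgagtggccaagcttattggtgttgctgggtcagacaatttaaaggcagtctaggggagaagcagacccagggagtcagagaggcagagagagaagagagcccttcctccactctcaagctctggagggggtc
The Grm2 window held 4 GC boxes, 22 CpG dinucleotides and 72.0% G and C. The Grm3 window held 2 GC boxes, which adjoin each other, 11 CpG dinucleotides and 63.7% G and C. The Grm6 window held 0 GC boxes, 4 CpG dinucleotides and 49.7% G and C. Across 32851 windows of the same length, 35.7% held a GC box, and the median was 7 CpG dinucleotides and 52.7% G and C. The other motifs searched on both strands were the cyclic AMP response motif TGACG, the TATA box TATAAA, the EGR site GCGTGGGCG and the NRF1 site, of which the EGR site can overlap a GC box. They occur in 20.8%, 13.6%, 0.612% and 4.60% of all windows, in that order. A match describes letters in the window and shows no binding.

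The members are paralogs, and their coding sequences were compared to see whether reads could be shared between them. Identity over aligned bases was 66.8% to 72.3% in the 7 pairs within a receptor group and 58.3% to 64.5% in the 14 pairs across groups. The longest stretch that any pair shares without a difference was 35 bases, between Grm4 (from base 2350 of its coding sequence) and Grm6 (from base 2326). The next longest was 27 bases, between Grm3 (from base 2314) and Grm4 (from base 2362). Both are shown because they mark the place where the family is hardest to tell apart, and capitals mark the 23 bases of Grm4 that lie in both stretches.
Grm4 and Grm6: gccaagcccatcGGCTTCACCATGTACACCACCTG
Grm3 and Grm4: GGCTTCACCATGTACACCACCTGcatc
No member had a copy of at least 95% identity over 200 bases in another gene, apart from antisense genes at the same place. Exons of Grm2 overlap the antisense gene Gm28111 over 470 bases, 9.60% of their length. Exons of Grm7 overlap the antisense gene Gm20387 over 130 bases, 2.21% of their length. Grm6 overlaps the antisense gene Gm12660 over 599 bases, and Grm8 holds the 96 bases of Mir592 on its own strand. The sources used here do not give whether the counting used strand, so reads in these overlaps cannot be told apart.

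Levels are given as counts per 1000000 reads (CPM) with library sizes scaled by TMM, and levels of different genes are compared per kilobase of merged exons. Grm5 had the highest level per kilobase in all 6 libraries, at 41.9 ± 3.49 CPM per kb (SD, n = 6). Grm3 followed at 24.1 ± 1.76 CPM per kb, and the ranges of Grm5 and Grm3 did not overlap. Grm7 at 13.8 ± 1.77 and Grm4 at 12.7 ± 1.29 CPM per kb overlapped each other and were below Grm3. Grm2 at 2.37 ± 0.947 and Grm8 at 1.19 ± 0.327 CPM per kb formed the low end of the detected genes, and their ranges overlapped. With coding length in place of merged exons, Grm5 remained the highest at 119 ± 9.90 CPM per kb, while Grm7, Grm3 and Grm4 lay together at 29.4, 27.9 and 27.7 CPM per kb and Grm2 and Grm8 at 4.43 and 4.32, so the order within these 2 sets rests on the gene models. Grm6, which in the mouse retina carries the light response of ON bipolar cells, was listed with 0 counts in every library. A count of 0 allows up to 3 counts, or 0.0755 to 0.0962 CPM.

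The receptor groups were then set against each other within each library. Group I, here Grm5, made up 44.4%, 44.1% and 42.7% of the members' summed level per kilobase in methylphenidate-sired libraries 2, 4 and 6, against 43.0%, 44.3% and 43.3% in saline-sired libraries 3, 4 and 5. Group II made up 27.8%, 27.7% and 28.9% in the methylphenidate-sired libraries, against 26.6%, 27.1% and 27.4% in the saline-sired ones. Group III made up 27.8%, 28.2% and 28.5% in the methylphenidate-sired libraries, against 30.5%, 28.6% and 29.3% in the saline-sired ones. The group II shares were higher and the group III shares lower in all methylphenidate-sired libraries than in any saline-sired one, and no test was made of these sums. Grm2 alone made up 3.24%, 2.69% and 3.78% in the methylphenidate-sired libraries, against 1.91%, 0.982% and 2.16% in the saline-sired ones. The group II sum contains this Grm2 difference, and Grm3, its other member, overlapped between the groups in CPM. The separation of group III rests on the gene lengths used. Per coding length it made up 27.7%, 28.3% and 29.0% in the methylphenidate-sired libraries and 30.3%, 28.7% and 29.2% in the saline-sired ones, with overlap, while group II made up 15.5%, 15.3% and 16.3% in the methylphenidate-sired libraries, against 14.5%, 14.5% and 15.1% in the saline-sired ones, still without overlap. The members' summed level overlapped between the groups, at 745, 650 and 627 CPM in the methylphenidate-sired libraries and 689, 639 and 752 CPM in the saline-sired ones.

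No member passed the test between the groups. The comparison asked whether a sire's treatment goes with a different receptor level in the offspring. Of 17874 genes tested, 0.0224% passed an adjusted p of 0.05 in edgeR's quasi-likelihood test with Benjamini-Hochberg adjustment, and 0 of the 6 members tested did. Grm6 fell below the filter on low counts. DESeq2 and limma-voom called 0 members as well, against 1.01% and 0.0224% of genes tested. DESeq2 gave no adjusted p for 3471 of these genes, which it therefore could not call. Grm2 was the 1 member with an unadjusted edgeR p under 0.05, beside 9.02% of genes tested (5.07% higher and 3.95% lower in the methylphenidate-sired group). It was also the 1 member whose groups did not overlap, beside 14.8% of genes tested (7.84% higher and 7.01% lower). Of the 6 members, 2 had positive and 4 negative log2 fold changes, and over all genes tested the median was -0.01 with 47.0% positive. A positive log2 fold change means a higher level in the methylphenidate-sired group.

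**Figure D1:**
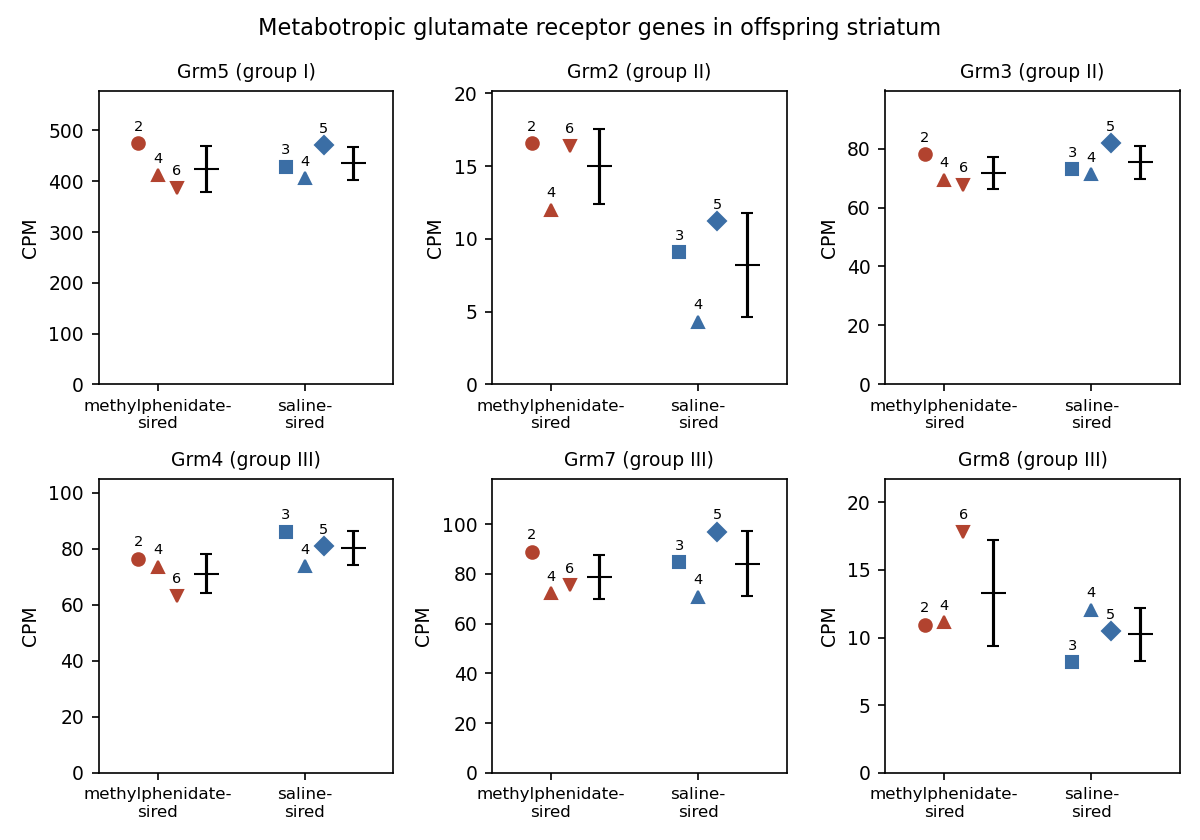
CPM of the 6 detected receptor genes (vertical axes, from 0, with a scale of their own) in each library, numbered as in the deposited table, with the mean and SD of 3 libraries per group beside the points. Grm2 lies at 12.0 to 16.6 CPM in the methylphenidate-sired libraries and at 4.30 to 11.2 CPM in the saline-sired libraries, while the other 5 genes overlap between the groups.

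Grm2 (Gene ID 108068, mm10 chromosome 9, 106644534 to 106656109, minus strand) encodes mGluR2, which restrains glutamate release from axon terminals. It had 544, 383 and 554 counts in methylphenidate-sired libraries 2, 4 and 6, against 361, 137 and 350 in saline-sired libraries 3, 4 and 5. These are 16.6, 12.0 and 16.4 CPM in the methylphenidate-sired libraries, against 9.08, 4.30 and 11.2 CPM in the saline-sired ones. The lowest methylphenidate-sired library stood just above the highest saline-sired one, and saline-sired library 4 was the lowest of all. The means were 15.0 ± 2.59 CPM in the methylphenidate-sired and 8.20 ± 3.54 CPM in the saline-sired group (SD, n = 3 each). The log2 fold change was 0.87 (SE 0.31, 95% interval 0.17 to 1.57), a ratio of 1.82, with an edgeR adjusted p = 0.474. In 1.35% of genes tested the log2 fold change was larger. DESeq2 gave an adjusted p = 0.102. Without saline-sired library 4 the log2 fold change was 0.56 (SE 0.18, edgeR adjusted p = 0.620).

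Set against its group II partner in the same library, which does not depend on how libraries are scaled, Grm2 had 0.212, 0.173 and 0.242 counts per Grm3 count in the methylphenidate-sired libraries. In the saline-sired libraries the ratio was 0.124, 0.0603 and 0.137, below each of the methylphenidate-sired values. Both genes enter this ratio, and no test was made of it.

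Grm3 (Gene ID 108069, chromosome 5, 9485236 to 9725352, minus strand) encodes mGluR3, found on astrocytes as well as neurons. It had 78.1, 69.4 and 67.7 CPM in the methylphenidate-sired libraries and 73.0, 71.4 and 81.8 CPM in the saline-sired libraries. The groups overlapped, with means of 71.7 ± 5.55 CPM in the methylphenidate-sired and 75.4 ± 5.58 CPM in the saline-sired group. Its log2 fold change was -0.07 (SE 0.08, 95% interval -0.26 to 0.12), with an edgeR adjusted p = 0.828. The astrocyte markers, 10 of 10 tested, had a median log2 fold change of 0.01 and a summed level of 4259 to 4658 CPM in the methylphenidate-sired and 3931 to 4587 CPM in the saline-sired libraries.

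Grm5 (Gene ID 108071, chromosome 7, 87583981 to 88135063, plus strand) encodes mGluR5, the Gq-coupled receptor of the postsynaptic spine. It had 474, 411 and 387 CPM in the methylphenidate-sired libraries and 428, 406 and 471 CPM in the saline-sired libraries. The groups lay over each other, with the highest value in methylphenidate-sired library 2 and the lowest in methylphenidate-sired library 6. The log2 fold change was -0.04 (SE 0.09, edgeR adjusted p = 0.938), and its 95% interval of -0.25 to 0.17 corresponds to ratios of 0.844 to 1.13. At 12939 or more counts in each library it was the best sampled member.

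Among the group III genes, Grm4 (Gene ID 268934, chromosome 17, 27422387 to 27513826, minus strand) encodes mGluR4, a presynaptic receptor of striatal output and cortical input terminals. It had 76.3, 73.6 and 63.2 CPM in the methylphenidate-sired libraries, against 86.0, 73.8 and 80.9 CPM in the saline-sired libraries. Only methylphenidate-sired library 2 exceeded a saline-sired value. The log2 fold change was -0.18 (SE 0.09, 95% interval -0.38 to 0.03, edgeR adjusted p = 0.603).

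Grm7 (Gene ID 108073, chromosome 6, 110645349 to 111567230, plus strand) encodes mGluR7, a receptor of the presynaptic active zone with low affinity for glutamate. It had 88.9, 72.1 and 75.4 CPM in the methylphenidate-sired libraries and 84.7, 70.7 and 96.8 CPM in the saline-sired libraries, with overlap. The log2 fold change was -0.09 (SE 0.12, 95% interval -0.37 to 0.19, edgeR adjusted p = 0.851). Grm8 (Gene ID 14823, chromosome 6, 27275121 to 28135146, minus strand) encodes mGluR8, a presynaptic receptor with high affinity for glutamate. It had 11.0, 11.1 and 17.8 CPM in the methylphenidate-sired libraries and 8.18, 12.1 and 10.5 CPM in the saline-sired libraries. A single library, methylphenidate-sired library 6, stood above the rest, and the log2 fold change of 0.38 (SE 0.22, 95% interval -0.12 to 0.89, edgeR adjusted p = 0.645) was 0.11 without it. The plot of log2 fold changes with their intervals sets the 6 genes side by side.

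**Figure D2:**
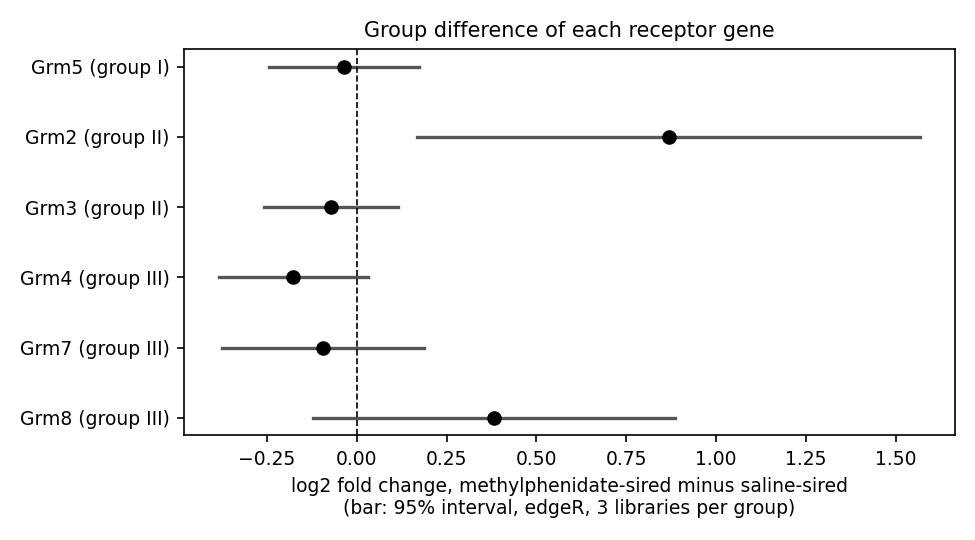
Log2 fold change of each detected receptor gene (horizontal axis, methylphenidate-sired minus saline-sired; points) with its 95% interval from edgeR (bars, 3 libraries per group). The Grm2 interval runs from 0.17 to 1.57 before adjustment over all genes, and the intervals of the other 5 genes hold 0.

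The members differed in how much they varied between libraries of a group. The biological coefficient of variation that edgeR estimated was 0.267 for Grm2 and 0.198 for Grm8, against 0.0823 for Grm3, 0.0887 for Grm4, 0.0954 for Grm5 and 0.113 for Grm7. The median over all genes tested was 0.129. The 2 genes of lowest level were thus also the 2 of widest spread, and their intervals the widest. Leaving out 1 library moved the Grm2 log2 fold change between 0.56 and 1.17, and its direction was positive each time. Because the Grm2 groups did not overlap, leaving out 1 library could hardly change that sign. Grm4 stayed negative, between -0.23 and -0.10, and Grm8 positive, between 0.11 and 0.52. Grm3, Grm5 and Grm7 took both signs.

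**Figure D3:**
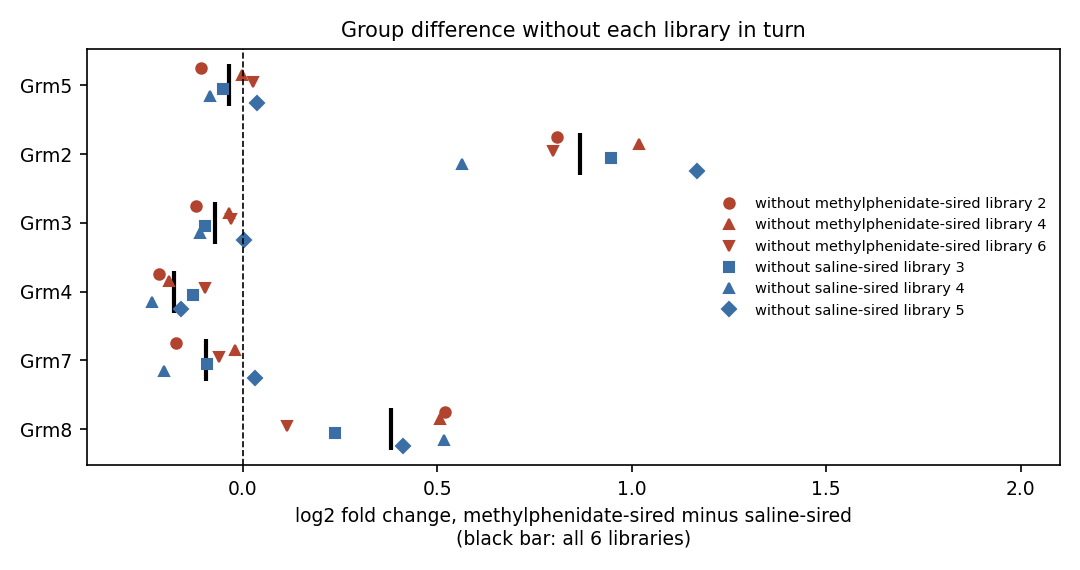
Log2 fold change of each detected receptor gene (horizontal axis) with all 6 libraries (black bars) and without each library in turn (points, red for a methylphenidate-sired and blue for a saline-sired library left out). Grm2 lies furthest from 0 throughout and is lowest, at 0.56, without saline-sired library 4, while Grm8 drops to 0.11 without methylphenidate-sired library 6.

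The labelled tissue was checked with 15 markers of striatal projection neurons, all of which were detected. The 2 most abundant were Pde10a, a phosphodiesterase gene, and Ppp1r1b, which encodes DARPP-32. Ppp1r1b averaged 1529 ± 140 CPM in the methylphenidate-sired group and 1778 ± 123 CPM in the saline-sired group, and Pde10a averaged 1673 ± 138 CPM in the methylphenidate-sired group and 1874 ± 110 CPM in the saline-sired group (SD, n = 3 each). The 15 markers summed to 10635 to 12059 CPM in the methylphenidate-sired group and to 12731 to 13476 CPM in the saline-sired group, without overlap, and all 15 had negative log2 fold changes (median -0.20, 0 past the edgeR test, 3 past that of DESeq2 and 9 at an unadjusted edgeR p under 0.05). Over all genes tested, 0.0224% passed the edgeR test and 1.01% that of DESeq2. At an unadjusted edgeR p under 0.05, 5.07% were higher and 3.95% lower in the methylphenidate-sired group. Total counts were 31360042 to 38844724 per library. In bulk tissue, fewer cells of a type and less RNA per cell cannot be told apart.

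Markers of cortical excitatory neurons stood the other way round. All 14 were tested, all had positive log2 fold changes (median 0.81, 0 past the edgeR test, 3 past that of DESeq2, 11 at an unadjusted edgeR p under 0.05), and none was at 0 counts. Leaving out saline-sired library 4 gave a median of 0.53, and leaving out saline-sired library 5 gave 1.20. Their summed level was 1523, 1534 and 1684 CPM in methylphenidate-sired libraries 2, 4 and 6, against 986, 668 and 1270 CPM in saline-sired libraries 3, 4 and 5. The most abundant, Slc17a7, encodes the vesicular glutamate transporter of cortical neurons. It stood at 540, 570 and 616 CPM in the methylphenidate-sired libraries, against 337, 163 and 438 CPM in the saline-sired ones. Next came Mef2c, a transcription factor gene, with 324 ± 19.6 CPM in the methylphenidate-sired and 226 ± 50.7 CPM in the saline-sired group (SD, n = 3 each; edgeR adjusted p = 0.433, DESeq2 adjusted p = 0.0170). Saline-sired library 4 was lowest in both Grm2 and these markers. For each 1000 CPM of the summed cortical markers, Grm2 was at 10.9, 7.81 and 9.73 CPM in the methylphenidate-sired libraries and 9.22, 6.44 and 8.84 CPM in the saline-sired libraries. On this scale the groups overlapped, with means of 9.47 ± 1.55 CPM in the methylphenidate-sired and 8.17 ± 1.50 CPM in the saline-sired group (SD, n = 3 each), and no test was made.

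**Figure D4:**
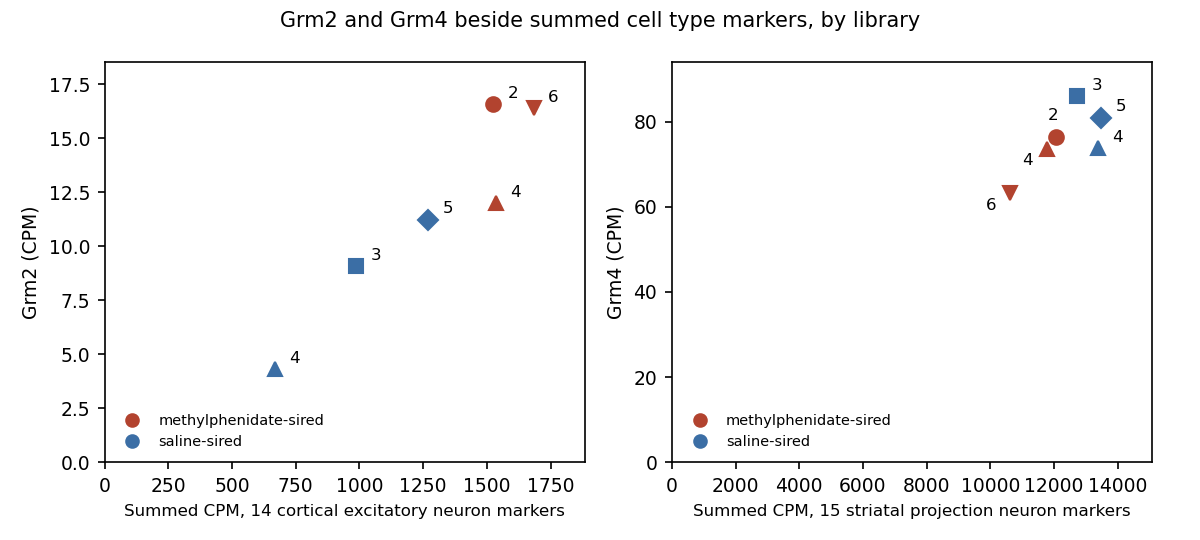
Left, Grm2 (vertical axis, CPM) against the summed CPM of 14 cortical excitatory neuron markers (horizontal axis) in each library. Right, Grm4 against the summed CPM of 15 striatal projection neuron markers. Red points are methylphenidate-sired and blue points saline-sired libraries, numbered as in the deposited table; in the left panel saline-sired library 4 lies lowest on both axes, at 668 and 4.30 CPM.

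For each 1000 CPM of the summed striatal markers, Grm4 was at 6.33, 6.24 and 5.94 CPM in the methylphenidate-sired libraries and 6.75, 5.52 and 6.01 CPM in the saline-sired libraries. The means were 6.17 ± 0.205 CPM in the methylphenidate-sired and 6.09 ± 0.624 CPM in the saline-sired group, with overlap. Grm5 on the same scale was at 39.3, 34.9 and 36.4 CPM in the methylphenidate-sired libraries, against 33.6, 30.4 and 34.9 CPM in the saline-sired ones. Its groups overlapped narrowly, with means of 36.9 ± 2.27 CPM in the methylphenidate-sired and 33.0 ± 2.35 CPM in the saline-sired group. The striatal sum that divides these values was itself lower in the methylphenidate-sired group, and no test was made on this scale. Choroid plexus markers, 11 of 12 tested, summed to 261 to 367 CPM in the methylphenidate-sired and 221 to 3135 CPM in the saline-sired libraries, highest in saline-sired library 3 (median log2 fold change -2.74, 0 past the edgeR or the DESeq2 test and 9 lower at an unadjusted edgeR p under 0.05). Without that library their median was -1.14, and the Grm2 log2 fold change was 0.95. The part of these other tissues in the receptor values was not tested. Medians for the remaining cell types were -0.05 for striatal interneurons, -0.19 for thalamic neurons, 0.03 for globus pallidus neurons, -0.20 for oligodendrocytes and precursors, -0.04 for microglia, -0.02 for endothelial cells and pericytes and -0.66 for ependymal cells, with 0 markers past the edgeR or the DESeq2 test in each. At an unadjusted edgeR p under 0.05, interneurons had 2 markers higher and 2 lower, so their median hides opposite directions. Ependymal cells had 3 lower, and the other types named with them had 0. All 10 markers were negative in ependymal cells and in oligodendrocytes and precursors. Several of these medians rested on 1 library. Without saline-sired library 4 the thalamic median was 0.07 and the oligodendrocyte median -0.0034, and without saline-sired library 5 they were -0.29 and -0.37. Without saline-sired library 3 the ependymal median was -0.07. On leaving out 1 library in turn, the medians of globus pallidus neurons (-0.02 to 0.15), microglia (-0.10 to 0.03), endothelial cells and pericytes (-0.09 to 0.07) and astrocytes (-0.05 to 0.09) took both signs, and that of interneurons ran from -0.09 to -0.00097.

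The signalling genes below the receptors were listed by role, and 0 genes of any list passed the edgeR test. For comparison, 9.02% of all genes tested had an unadjusted edgeR p under 0.05 (5.07% higher and 3.95% lower), and DESeq2 called 1.01%. The groups did not overlap in 14.8% (7.84% higher and 7.01% lower), and 47.0% had positive log2 fold changes. The Gq and phospholipase C list, which serves group I receptors, had 12 of 19 positive log2 fold changes (median 0.06), with 2 higher and 0 lower at an unadjusted edgeR p under 0.05. The phospholipase gene Plcb4 was at 52.6, 52.3 and 71.8 CPM in the methylphenidate-sired libraries and 42.6, 44.8 and 49.5 CPM in the saline-sired ones, without overlap (log2 fold change 0.37, SE 0.13, edgeR adjusted p = 0.471). Dgkz, a diacylglycerol kinase gene, had 0.30 (SE 0.13).

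The Gi/o protein list, which serves groups II and III, had 10 of 15 positive (median 0.03), with 3 higher and 2 lower at an unadjusted edgeR p under 0.05. The gamma subunit gene Gng3 had 111 ± 4.60 CPM in the methylphenidate-sired and 88.4 ± 6.37 CPM in the saline-sired group (edgeR adjusted p = 0.376 at a log2 fold change of 0.32 with SE 0.07, DESeq2 adjusted p = 0.0209). The beta subunit gene Gnb5 had 248 ± 3.37 CPM in the methylphenidate-sired and 284 ± 10.6 CPM in the saline-sired group (edgeR adjusted p = 0.452 at a log2 fold change of -0.20 with SE 0.06). Exons of Gng3 overlap those of Bscl2 on the other strand, which leaves its counts uncertain. Exons of Dgkz, Gnb5, Adcy2, Kcnj3, Kcnj6, Homer2, Shank1, Rimkla and Ppp1r1b also overlap an annotated gene on the other strand. Of the 9 adenylyl cyclase genes, whose enzymes make cyclic AMP, 4 were positive (median -0.0048, and 0.12 without methylphenidate-sired library 4). At an unadjusted edgeR p under 0.05, 2 were higher and 1 lower. Adcy1 had 0.27 (SE 0.09) and Adcy2 0.29 (SE 0.11). The lower one was Adcy5, the main cyclase of the striatum and also 1 of the striatal markers, at -0.21 (SE 0.08).

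The G protein-gated potassium channel genes, whose channels open when Gi/o proteins release their beta-gamma subunits, were positive in 4 of 4 (median 0.54), with 3 at an unadjusted edgeR p under 0.05. Kcnj3 was at 61.8, 63.6 and 72.4 CPM in the methylphenidate-sired libraries, against 40.6, 31.2 and 50.8 CPM in the saline-sired ones. Its log2 fold change was 0.69 (SE 0.16, edgeR adjusted p = 0.400), and DESeq2 called it (DESeq2 adjusted p = 0.00325). Kcnj6 was at 69.9, 58.2 and 70.9 CPM in the methylphenidate-sired libraries, against 34.0, 25.2 and 51.4 CPM in the saline-sired ones (log2 fold change 0.85, SE 0.22, edgeR adjusted p = 0.428, DESeq2 adjusted p = 0.205). In both genes the groups did not overlap, which held for 7.84% of genes tested in the higher direction. Saline-sired library 4, which was lowest in the cortical markers, held the lowest value of each. The part of cortical RNA in these values was not tested.

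Partners that bind the receptors were positive in 15 of 21 (median 0.07), with 4 higher and 0 lower at an unadjusted edgeR p under 0.05. Homer proteins hold mGluR5 in the postsynaptic density, and Homer2 was at 27.9, 32.4 and 33.4 CPM in the methylphenidate-sired libraries, against 20.4, 23.1 and 25.6 CPM in the saline-sired ones (log2 fold change 0.44, SE 0.11, edgeR adjusted p = 0.419, DESeq2 adjusted p = 0.0491). The scaffold gene Shank1 had 0.57 (SE 0.16, edgeR adjusted p = 0.437, DESeq2 adjusted p = 0.0123), and its lowest value, 179 CPM, was again in saline-sired library 4. Of the genes for receptor desensitisation 5 of 11 were positive (median -0.0020), with the receptor kinase genes Grk3 at 0.34 (SE 0.08) and Grk2 at 0.24 (SE 0.07).

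**Figure D5:**
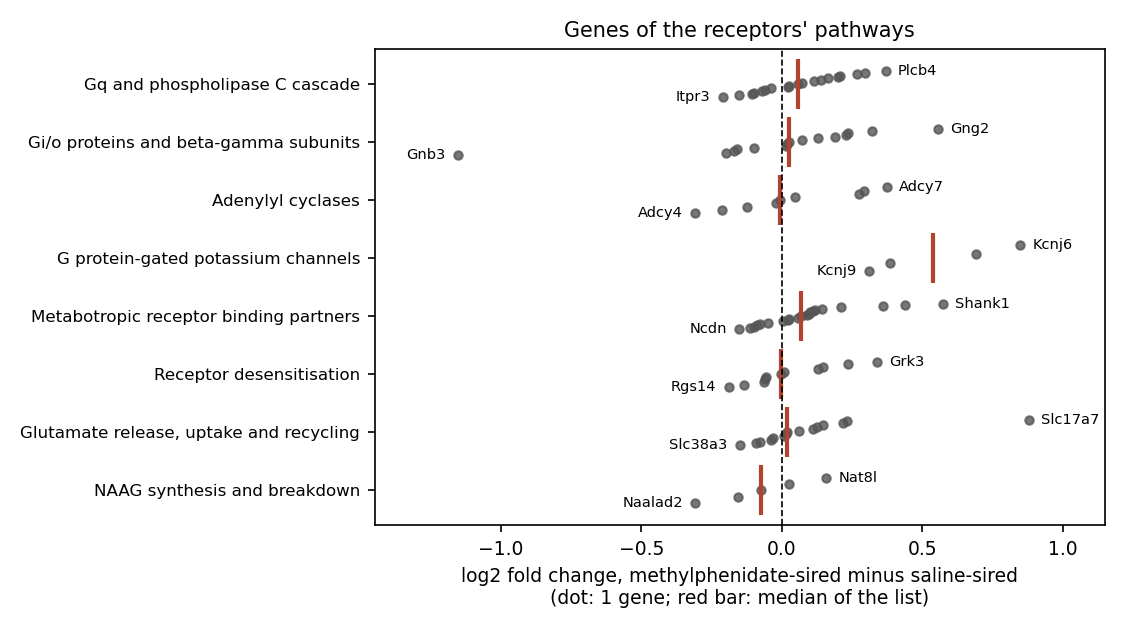
Log2 fold changes of the genes in 8 lists around the receptors (horizontal axis, methylphenidate-sired minus saline-sired; 1 dot per gene tested, red bar for the list's median, lowest and highest gene named). The 4 potassium channel genes have a median of 0.54, and Slc17a7 at 0.88 stands apart from the rest of its list.

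The supply of the receptors' ligands was read from 2 further lists. Of the genes for glutamate release, uptake and recycling, 10 of 15 were positive (median 0.02). Slc17a7, also a cortical marker, was at 0.88 on the log2 scale (edgeR adjusted p = 0.470, SE 0.29). Of the 5 genes that make or cleave N-acetylaspartylglutamate, a peptide transmitter that acts on mGluR3, or make its precursor, 2 were positive (median -0.08, and 0.03 without saline-sired library 4). Nat8l, which makes N-acetylaspartate, had 0.16 (SE 0.08), and Rimkla, a synthase of the peptide, had -0.16 (SE 0.12). The proteins that accompany mGluR6 in the mouse retina were represented by 9 genes, of which 6 passed the filter on low counts and 2 of these were positive (median -0.14, and 0.02 to 0.08 on leaving out methylphenidate-sired library 2 or saline-sired library 5). Trpm1, the channel gene at the end of that cascade, was at 2, 4 and 4 counts in the methylphenidate-sired libraries and 9, 0 and 3 counts in the saline-sired ones, beside the 0 counts of Grm6. Rgs7 and Gnb5, which the brain also uses outside this complex, had 0.19 (SE 0.07) and -0.20 (SE 0.06).

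For each tested member, the 2 genes whose log2 CPM followed it most closely over the 6 libraries were named by Pearson r, as a description over 6 points. Cbln2, a secreted synapse organiser, and Ildr2 followed Grm2 (r = 0.995 and 0.994). Cbln2 was at 27.5, 22.1 and 29.8 CPM in the methylphenidate-sired and 14.3, 7.16 and 19.3 CPM in the saline-sired libraries, so it too was lowest in saline-sired library 4. In all, 194 genes, 1.09% of those tested, reached an r of 0.95 with Grm2, against 30 to 63 genes for each of the other 5 members. Uevld and Ccdc187 followed Grm3 (0.993 and 0.991), Ccdc181 and Iah1 followed Grm4 (0.997 and 0.991), and Zc3h6 and Fam136a followed Grm5 (0.998 and 0.991). Gucy1a1, a subunit of the nitric oxide receptor, and Pde7a, a phosphodiesterase gene, followed Grm7 (0.990 and 0.985), and Tbc1d12 and Chml followed Grm8 (0.993 and 0.989). Exons of Iah1 overlap those of Adam17 on the other strand, so its counts are uncertain. Exons of Chml overlap Opn3, those of Zc3h6 overlap Gm14027 and those of Gucy1a1 overlap Mir7010 on the same strand. Exons of Ildr2, Zc3h6 and Pde7a overlap an annotated gene on the other strand, which leaves their counts uncertain as well. All these values of r share the same 6 libraries and their depth.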

How the data were processed

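RNA-seq of offspring striatum was used as deposited. Per the submitters' processing notes, bcl2fastq 2.20.0, Trimmomatic, HISAT2 2.1.0 and StringTie 2.1.3b were used with build mm10; the sources used here do not give order, settings, strand or the treatment of reads with several matches. The table that the authors deposited has whole-number read counts per RefSeq gene, not normalized. Its columns name a group and an animal number that differs from the titles, so each column was tied to a group only, sex was not modelled, and 12 further columns were not used.

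Counts were tested over all genes with edgeR 4.0.16 in R 4.3.3 (quasi-likelihood F test, TMM scaling, filterByExpr, Benjamini-Hochberg, threshold 0.05). The SE came from the fold change and F statistic. Alternatives were RLE and upper-quartile scaling, no filter, DESeq2 1.42.0, limma-voom (limma 3.58.1) and leaving out each library; scripts were tested on simulated data. Every pair of libraries differed by more than sampling noise (chi-square per gene 8.45 to 35.4). Lengths and coding sequences came from GENCODE vM21, gene positions from RefSeq (GRCm38.p6, the assembly of mm10), and copies from blastn 2.17.0. The members and lists were chosen with earlier results of these data known. All members were named, with the 2 genes of lowest p per pathway list, the 2 most abundant genes per marker list (printed for the striatal and cortical lists), and the 2 closest genes by r whose average log2 CPM reached 1. Trpm1 and Adcy5 were named after their values were seen, and 1 gene that the rule names is not reported here.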

Additional observations from a re-analysis of the deposited data

How the results depend on the processing

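No member passed the test under any of the 11 alternatives (5 with all 6 libraries, 6 leaving out 1). The count of all genes past it was 4, 180 with DESeq2, and 1 to 4 without 1 library, lowest without methylphenidate-sired library 6; the cause was not tested. Grm2, Grm4 and Grm8 had the same sign under every alternative, and the lowest adjusted p among them was 0.102 (Grm2, DESeq2). For Grm2 the lack of overlap between the groups left little room for another sign. Leaving out 1 library, the log2 fold change of Grm3 ran from -0.12 to 0.0030, that of Grm5 from -0.11 to 0.036 and that of Grm7 from -0.20 to 0.033. Grm3 and Grm7 turned positive without saline-sired library 5 (0.0030 and 0.033), and Grm5 did so without that library (0.036) or methylphenidate-sired library 6 (0.03). Of 120 list medians without 1 library, 103 moved by less than the spread between libraries, and that of the Gq list ran from 0.03 to 0.11. Receptor group shares per coding length were added after seeing the data. No paired analysis was possible because the table's columns carry animal numbers other than the replicate numbers of the labels. With 3 libraries a group, the intervals of Grm2 and Grm8 span about 1 unit or more on the log2 scale. The size of any difference in these genes was thus poorly determined.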
